A study of Mus musculus with 23 samples.

Results

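Fatty acids made in the cytosol are activated to acyl-CoA and joined to a glycerol, fatty alcohol or ether backbone, and the neutral lipid that results is packed into droplets coated with dedicated proteins. The transcripts of 44 mouse genes of this route were measured in the glands and the eyelid skin around the eye. The genes were chosen by role, with earlier results of these data known, and given by symbol. They were found on the array through the RefSeq accession of each probe. A probe matched 43 of the 44 (not Far1), and 42 were among the 16324 genes tested (not Awat1, whose probe was too dim in every group). By role, 9 belong to fatty acid synthesis and its regulators, 7 to desaturation and activation, 9 to glycerolipid assembly, 7 to wax ester and ether lipid synthesis, 10 to droplet proteins and 2 to lipases.

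All samples came from mice of the background strain B6/CL. At embryonic day 16.5, epithelium and mesenchyme were separated from lacrimal gland (LG), harderian gland (HG) and eyelid, the last with its ocular conjunctiva, with 3 arrays for each of the 6 groups. At 7 weeks, the whole LG (2 arrays) and the whole HG (3 arrays) were taken without separation, so an adult gland can hold stroma, vessels and fat beside its epithelium. The labels do not say whether arrays of a group came from separate animals, so p-values reflect no more than how these arrays vary, which may be technical. In such bulk samples, fewer cells of a type and less RNA per cell cannot be told apart.

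The LG secretes most of the water and protein of tears. The rodent HG, which lies behind the eyeball, secretes mostly lipid together with porphyrin, and a large share of that lipid is an ether-linked diacylglycerol, so the ether lipid enzymes belong to its known chemistry. In the eyelid, the meibomian glands secrete wax esters and other lipids onto the tear film, and the surface epithelium builds a lipid barrier. Droplet proteins are best known from fat cells, in which perilipins and the CIDE proteins control the size and breakdown of droplets.

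Levels are given as log2 signal minus the log2 of the same array's 75th percentile, so 0 is a signal at that percentile and 1 unit is a 2-fold difference. A level is comparable between arrays for 1 gene and not between genes. The share of spots well above background ran from 42.4 percent, on an adult LG array, to 64.6 percent. Members were called from 1 limma fit over 23 arrays, at a Benjamini-Hochberg adjusted p under 0.05 over all 16324 genes. Where a gene was not well above background on any array of a group, its difference is given as a lower bound ("at least N-fold"), set on each array by the dimmest signal that was well above background or by the gene's own signal where that was higher.

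Markers of the labelled tissues were mostly in place. The 13 epithelial markers had a median difference of 4.99 in LG epithelium over LG mesenchyme, 4.87 in HG and 3.15 in the eyelid, and the 12 mesenchymal markers had -4.40, -3.03 and -4.69. Of 12 lacrimal acinar markers, 9 were lower in adult HG than in adult LG, and 10 of 11 markers of lipid-secreting glands were higher. Both lists were drawn up with earlier results of these data known. Among the adult LG arrays, replicate 1 stood apart in Dcpp1 (7.23 against -4.18 in replicate 2), Dcpp3 (7.50 against -5.09) and Bpifa2 (10.60 against -2.81), which encode secreted proteins known from salivary glands. Adult HG replicate 1 was the highest of its group in the muscle gene Myl1 (5.19 against 1.32 and -1.96), the plasma cell gene Jchain (6.02 against 0.74 and -3.45) and the fat cell gene Adipoq (1.63 against -0.77 and -2.03). Of 12 mesenchymal markers 10 were higher in adult HG than in adult LG, and of 6 skeletal muscle markers 4 were. What other tissues contributed to the members' levels was not tested, and counts without both replicate 1 arrays of the adult glands are given beside the results.

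Adult HG had higher levels than adult LG of most genes along the route, from acetyl-CoA supply to the droplet coat. Of the 42 members tested, 30 were higher and 4 lower in adult HG, where 33.2 percent of all genes tested were higher and 22.4 percent lower. Since the members were chosen with earlier results of these data known, these counts describe them and do not test the route. The median difference over the members was 2.74, against 0.13 over all genes, and it was 2.62 within slide 2 and 3.30 within slide 3, the slides that held both glands. For 24 of the 42, all 3 adult HG arrays exceeded all 20 other arrays, a pattern without a test that 11.2 percent of all genes showed. Without replicate 1 of both adult glands, 30 members were higher and 2 lower. The heat map of the members shows adult HG as the block of high levels at its right edge.

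**Figure D1:**
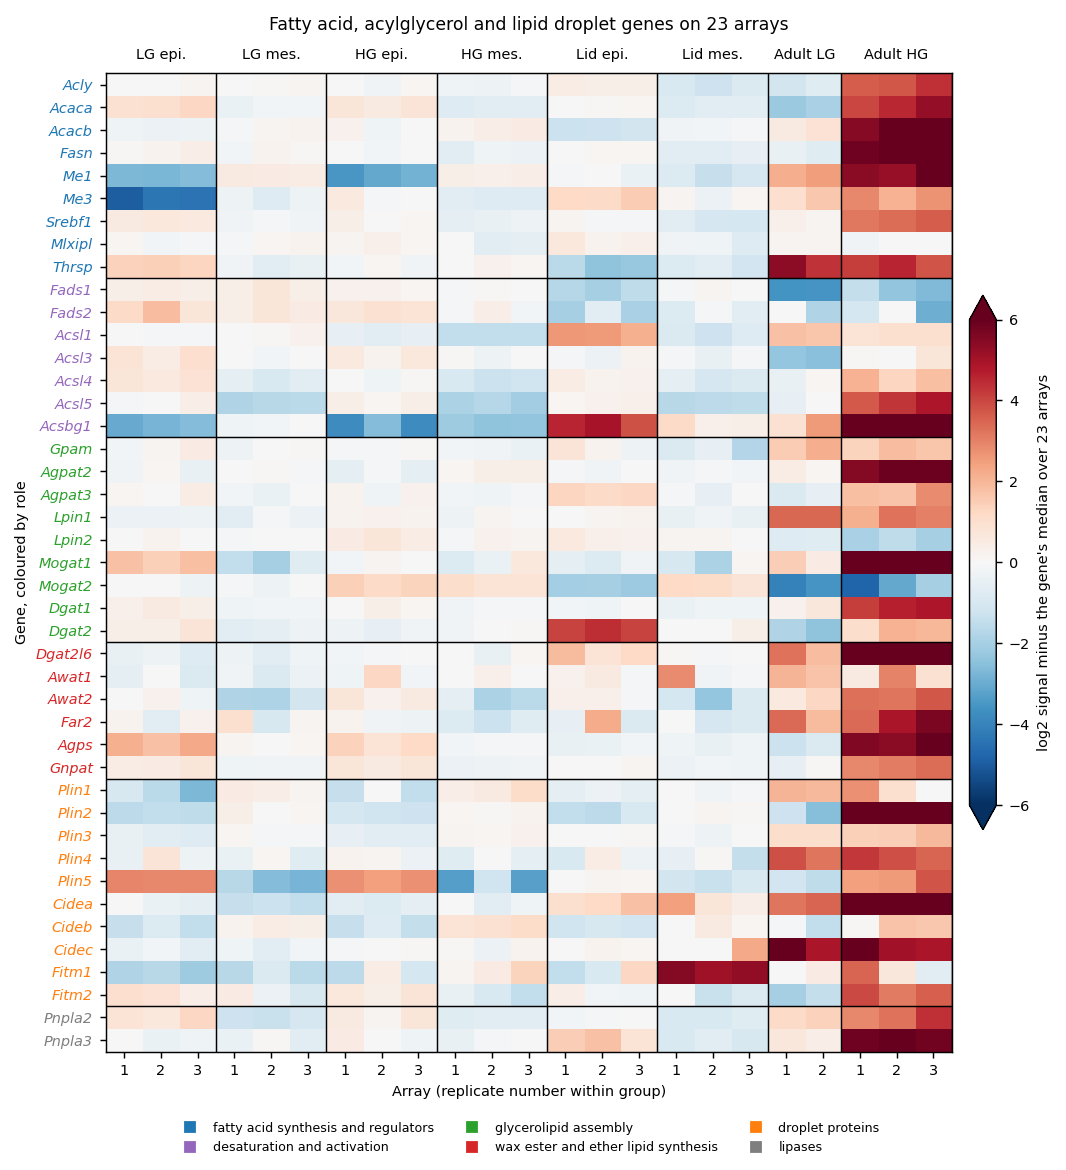
Level of the 43 members with a probe (rows, grouped and coloured by role) on each of the 23 arrays (columns, by group and replicate number), as log2 signal minus the gene's median over the 23 arrays; colours saturate at 6 units and many of the lowest values lie below the detection threshold. Adult HG is high for 30 of the 42 members tested when set against adult LG, whereas Lpin2 is lowest in adult HG and Fitm1 is highest in eyelid mesenchyme.

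The enzymes that supply and build the fatty acid chain were among the clearest differences. Fasn, the fatty acid synthase that makes palmitate, had levels of 5.79, 6.69 and 7.08 on the 3 adult HG arrays and -0.49 and -0.77 on the 2 adult LG arrays. On the 18 embryonic arrays it ran from -0.72 over a median of -0.06 to 0.36, so the adult HG arrays stood above all others and the remaining arrays lay close together. The Fasn difference between the adult glands was 7.15 ± 0.25 (SE), or 142-fold, with an adjusted p of 9.79e-14 in limma. Acaca and Acacb, the carboxylases that make the malonyl-CoA used by Fasn, were higher by 6.69 ± 0.24 and 5.30 ± 0.22 (adjusted p = 1.18e-13 and 7.32e-13).

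The acetyl-CoA and NADPH suppliers followed the same order at smaller sizes. Acly, which splits citrate into acetyl-CoA, was higher in adult HG by 4.83 ± 0.20. Me1, the cytosolic malic enzyme that yields NADPH, had levels of 8.18, 8.0 and 8.91 in adult HG against 4.97 and 5.31 in adult LG, a difference of 3.23 ± 0.24. Both adult glands lay above every embryonic array for Me1, whose highest embryonic level was 3.35. Srebf1, which encodes a transcription factor of lipid synthesis, was higher by 3.16 ± 0.16 (adjusted p = 1.26e-11).

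Mlxipl, which encodes the carbohydrate-responsive factor ChREBP, had a difference of -0.24 (95% interval -0.65 to 0.18), and its other detected probe gave 1.12, so its direction rests on the probe. Thrsp, which encodes a regulator of fatty acid synthesis known from fat and liver, had levels of 0.39, 0.80 and 0.00 in adult HG and 1.60 and 0.57 in adult LG. These arrays overlapped, and the difference of -0.69 passed narrowly (adjusted p = 0.0494) and was -0.16 (adjusted p = 0.717) without replicate 1 of both glands. It was -0.17 (adjusted p = 0.683) without adult LG replicate 1 alone and -1.20 (adjusted p = 0.00367) without adult LG replicate 2. Me3, the mitochondrial malic enzyme, was higher by 1.24 ± 0.28 with the probe used, but its other detected probe gave -1.28 and the mean over its probes -0.02.

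Activation of fatty acids to acyl-CoA differed by enzyme. Acsbg1, an acyl-CoA synthetase of the bubblegum family, had levels of 7.33, 7.97 and 7.98 in adult HG and -1.37 and 0.29 in adult LG. No array of adult LG came near adult HG, and the difference was 8.30 ± 0.44, or 315-fold (adjusted p = 2.04e-11). Acsl5, a long-chain acyl-CoA synthetase, had levels of 6.18, 6.80 and 7.37 in adult HG against 2.0 and 2.50 in adult LG (difference 4.53 ± 0.25). Acsl3 and Acsl4, of the same family, were higher by 2.69 ± 0.24 and 1.91 ± 0.22.

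Acsl1 went the other way. Its levels of 3.14, 3.26 and 3.29 in adult HG all lay below the 4.05 and 3.96 of adult LG, a difference of -0.77 ± 0.16 (adjusted p = 0.000383) that did not pass when arrays were scaled to their medians (-0.53, adjusted p = 0.19). Among the desaturases of polyunsaturated fatty acids, Fads1 was higher in adult HG by 1.41 ± 0.24, although both glands lay below most embryonic arrays: -0.29, -1.20 and -1.51 in adult HG, -2.42 and -2.39 in adult LG, and a median of 1.29 on the 18 embryonic arrays. Fads2 overlapped between the adult glands, with a difference of -0.44 (95% interval -1.78 to 0.91).

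Glycerolipid assembly, which adds acyl chains to glycerol step by step, was split. Mogat1, an acyltransferase of the monoacylglycerol pathway, had levels of 8.44, 8.13 and 8.98 in adult HG and -1.70 and -2.67 in adult LG, of which 1 array was well above background. On the 18 embryonic arrays it ran from -5.17 to -1.37, so that no other array came near adult HG. The difference was 10.70 ± 0.50, or 1668-fold (adjusted p = 3.8e-12). Mogat2 of the same family had levels of -6.14, -4.41 and -3.35 in adult HG and -5.40 and -4.90 in adult LG, of which 1 adult HG array was well above background, and the groups overlapped.

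Agpat2, which adds the second acyl chain, had levels of 5.94, 6.33 and 6.36 in adult HG against 0.91 and 0.58 in adult LG, a difference of 5.46 ± 0.18 (adjusted p = 4.18e-14). Dgat1 and Dgat2, unrelated enzymes that both make triacylglycerol from diacylglycerol, were higher by 4.09 ± 0.18 and 3.84 ± 0.26. For Dgat2 the adult HG levels of 3.52, 4.56 and 4.48 lay between the 0.65 and 0.05 of adult LG and the 6.51 to 6.89 of eyelid epithelium. Agpat3 was higher by 2.79 ± 0.27.

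The phosphatidate phosphatases of the lipin family, which yield the diacylglycerol, were lower in adult HG. Lpin2 differed by -1.06 ± 0.16 (adjusted p = 2.23e-05). The Lpin1 difference of -0.64 ± 0.23 (adjusted p = 0.0276) was lost in 7 of the alternatives, among them those without adult HG replicate 1 (-0.31), adult LG replicate 1 or adult LG replicate 2. Gpam, which starts the pathway on the outer mitochondrial membrane, had a difference of -0.23 (95% interval -0.91 to 0.46).

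All 5 tested members of wax ester and ether lipid synthesis were higher in adult HG. Dgat2l6, an acyltransferase of the Dgat2 family, had levels of 6.66, 6.84 and 7.88 in adult HG and was not well above background on either adult LG array (-3.51 and -4.94) or on any of the 18 embryonic arrays. It was at least 1144-fold higher in adult HG than in adult LG (adjusted p = 5.75e-14). Agps, which exchanges an acyl chain for a fatty alcohol and so makes the ether bond, had levels of 8.16, 8.04 and 8.63 in adult HG against 1.34 and 1.77 in adult LG.

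The embryonic arrays lay between the adult glands for Agps, from 2.19 to 4.89, and the adult difference was 6.72 ± 0.20, or 106-fold (adjusted p = 1.01e-14). Gnpat, which carries out the step before Agps in the peroxisome, was higher by 3.28 ± 0.16. Awat2, a wax synthase known from sebaceous and meibomian glands, had levels of -1.17, -1.23 and -0.74 in adult HG and was at least 3.97-fold higher than in adult LG, where neither array (-3.90 and -3.23) was well above background. Far2, which reduces acyl-CoA to fatty alcohol, had levels of -2.47, -0.97 and -0.21 in adult HG and -2.46 and -3.97 in adult LG. The lowest adult HG array lay just below the highest adult LG array, and the difference of 2.0 ± 0.78 (adjusted p = 0.0374) was lost in 7 of the alternatives, with adjusted p from 0.0501 to 0.302, among them those without adult HG replicate 2, adult HG replicate 3 or adult LG replicate 2 (1.24).

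Droplet proteins divided into 6 that were higher in adult HG and those that were not called between the adult glands. Plin2, the perilipin found on droplets of most cells, had levels of 10.10, 9.89 and 10.49 in adult HG and 2.31 and 0.99 in adult LG, while the embryonic arrays ran from 1.97 to 3.92. Its difference was 8.51 ± 0.27, or 364-fold (adjusted p = 3.02e-14). Cidea, which promotes droplet fusion and is known from brown fat and sebaceous cells, had levels of 9.06, 8.92 and 10.02 against 1.18 and 1.46, a difference of 8.01 ± 0.44 (adjusted p = 3.37e-11). Its highest level outside adult HG was the 1.46 of adult LG.

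Fitm2, which helps droplets bud from the endoplasmic reticulum, and Plin5, a perilipin of oxidative tissues, were at least 9.43-fold and at least 6.91-fold higher in adult HG, since neither was well above background in adult LG. Cideb was higher by 1.93 ± 0.41 (1.26, adjusted p = 0.0298, without adult LG replicate 2), and Plin3 by 0.58 ± 0.16 (adjusted p = 0.00431), a small difference that was lost with median scaling (adjusted p = 0.0523). The perilipins and the CIDE gene best known from fat cells were not called. Plin1 differed by -0.77 (95% interval -1.99 to 0.45), Plin4 by 0.32 (-0.65 to 1.29) and Cidec by 0.22 (-1.11 to 1.54).

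Cidec had levels of 0.59, -1.61 and -1.78 in adult HG and -0.52 and -1.79 in adult LG. On no embryonic array was Cidec well above background. Fitm1, known from muscle, had levels of -1.70, -4.49 and -5.87 in adult HG, highest on the replicate 1 array that was also highest in Myl1 and Adipoq, and -5.20 and -4.71 in adult LG. Plin1 and Cidec were likewise highest on that array among the 3, with Plin1 at -1.95 against -3.75 and -4.69. Without that array the Plin1 difference passed (adjusted p = 0.0114).

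Both lipases were higher in adult HG. Pnpla2, the triacylglycerol lipase ATGL, had levels of 4.88, 5.22 and 6.37 in adult HG and 3.13 and 3.36 in adult LG, a difference of 2.25 ± 0.30 (adjusted p = 4.43e-06). Pnpla3, a lipase and acyltransferase of droplets, had levels of 1.76, 1.91 and 1.70 in adult HG and was at least 28.3-fold higher than in adult LG, where neither array was well above background.

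**Figure D2:**
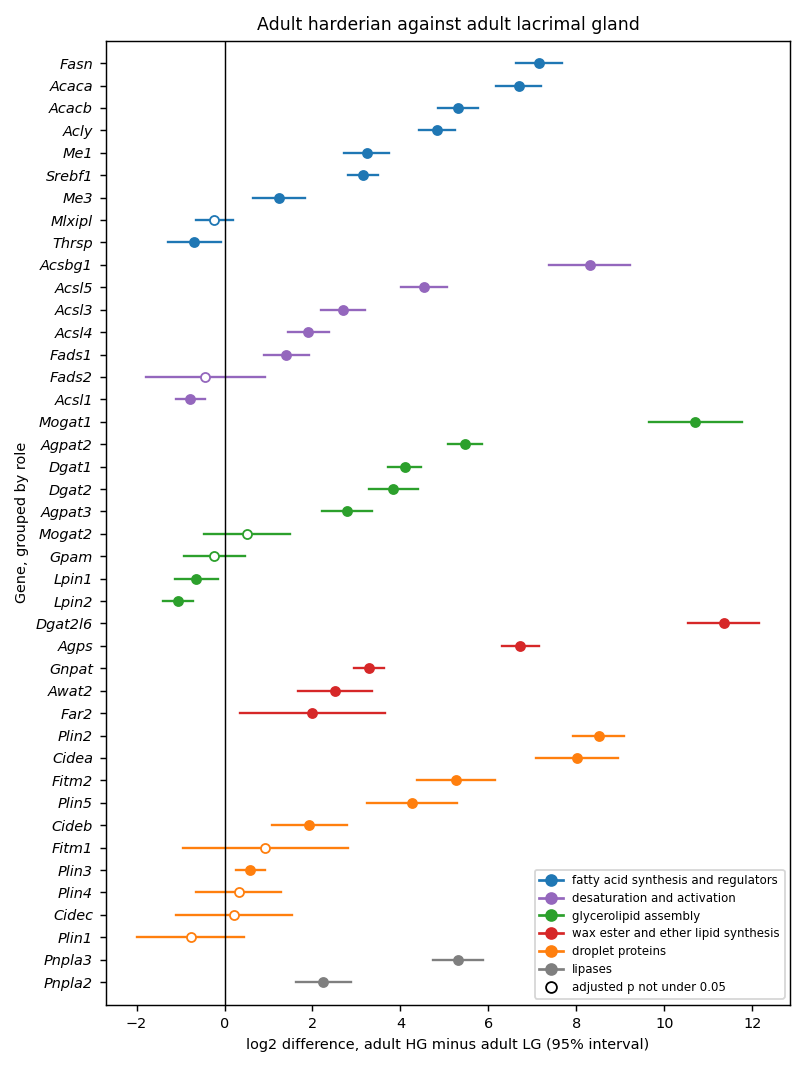
Difference in level between adult HG and adult LG for the 42 members tested (log2, points with 95% intervals from the limma fit, grouped and coloured by role); filled points had an adjusted p under 0.05. Positive values are higher in adult HG; differences run from -1.06 for Lpin2 to 11.35 for Dgat2l6, whose adult LG arrays were not well above background.

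**Figure D3:**
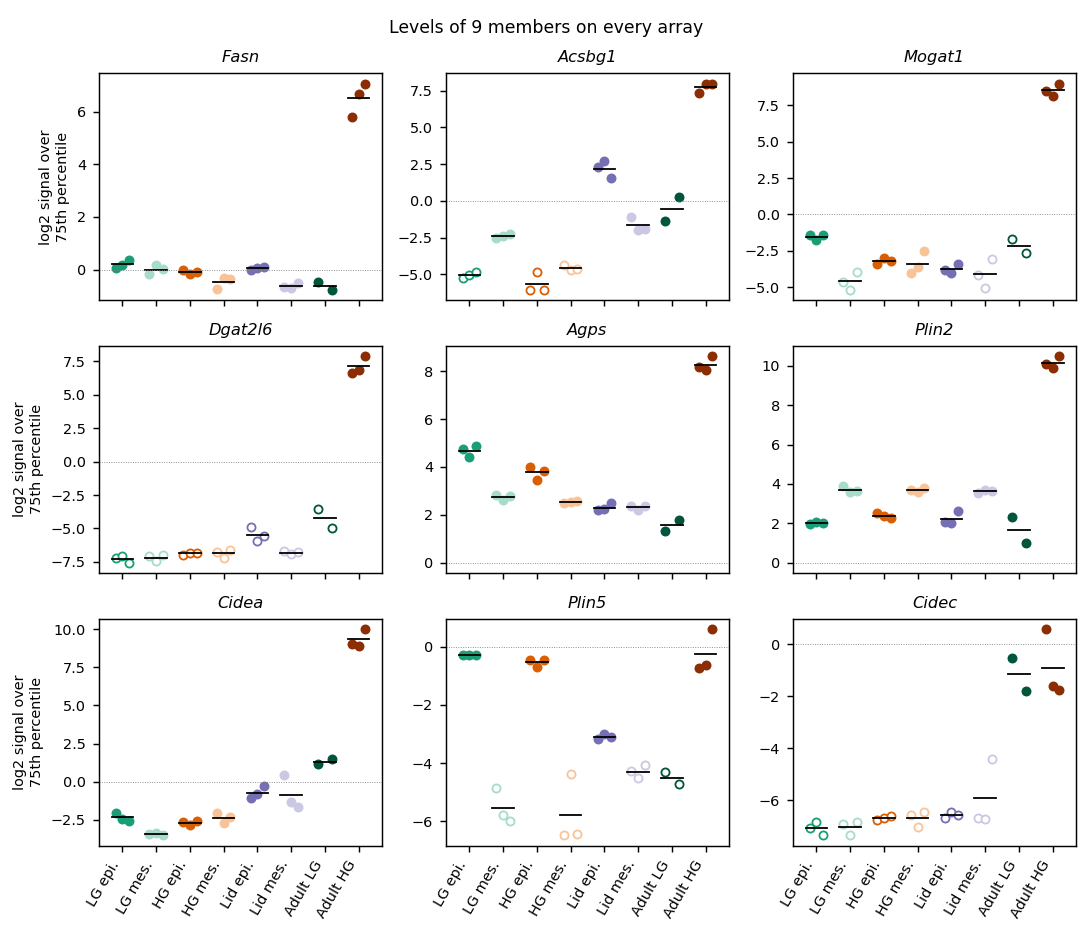
Level on every array (log2 signal over the array's 75th percentile; 1 panel per gene with its own vertical scale) for 9 members in the 8 groups. Each point is an array, the bar is the group mean, and points are open where not all arrays of the group were well above background. Adult HG stands above every other group for Fasn, Acsbg1, Mogat1, Dgat2l6, Agps, Plin2 and Cidea, but not for Plin5, which also has high gland epithelia, or for Cidec, which overlaps between the adult glands.

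Promoter sequences of 6 of the members with adult differences over 6 units are shown because these genes were high together in adult HG. They are the 250 bases before the RefSeq transcript start (GRCm38.p6), 5′ to 3′ on the gene's strand, with the NF-Y box in capitals (CCAAT on either strand, read as ATTGG where it lies on the other strand). Fasn lies at chr11:120824548-120824797 (minus strand), Acsbg1 at chr9:54661886-54662135 (minus), Plin2 at chr4:86670060-86670309 (minus), Agps at chr2:75831927-75832176 (plus), Mogat1 at chr1:78510810-78511059 (plus) and Dgat2l6 at chrX:100524588-100524837 (plus).
Fasn: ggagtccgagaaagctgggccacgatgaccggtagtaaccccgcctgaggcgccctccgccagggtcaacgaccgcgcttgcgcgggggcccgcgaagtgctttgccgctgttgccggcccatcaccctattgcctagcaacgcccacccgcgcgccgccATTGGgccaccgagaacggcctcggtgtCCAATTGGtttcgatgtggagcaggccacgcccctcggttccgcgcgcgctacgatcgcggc
Acsbg1: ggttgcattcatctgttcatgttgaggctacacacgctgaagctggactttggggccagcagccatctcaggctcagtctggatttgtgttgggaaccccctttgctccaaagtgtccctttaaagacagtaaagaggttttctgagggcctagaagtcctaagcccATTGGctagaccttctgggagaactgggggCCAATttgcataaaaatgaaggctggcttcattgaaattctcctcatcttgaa
Plin2: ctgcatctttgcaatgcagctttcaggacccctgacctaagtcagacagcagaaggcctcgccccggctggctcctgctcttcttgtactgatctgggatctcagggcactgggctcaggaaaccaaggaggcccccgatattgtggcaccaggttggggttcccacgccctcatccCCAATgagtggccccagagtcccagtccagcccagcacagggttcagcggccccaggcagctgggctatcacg
Agps: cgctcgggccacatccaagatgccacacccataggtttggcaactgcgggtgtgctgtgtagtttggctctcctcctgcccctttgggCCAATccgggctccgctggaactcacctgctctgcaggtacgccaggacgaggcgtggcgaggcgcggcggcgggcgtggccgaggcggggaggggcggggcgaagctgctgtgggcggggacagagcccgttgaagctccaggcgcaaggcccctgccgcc
Mogat1: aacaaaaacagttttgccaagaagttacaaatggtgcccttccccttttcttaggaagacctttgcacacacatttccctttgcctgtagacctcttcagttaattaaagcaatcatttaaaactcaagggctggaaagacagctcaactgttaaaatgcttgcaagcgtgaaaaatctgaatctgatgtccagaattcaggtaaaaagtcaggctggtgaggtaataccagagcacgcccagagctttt
Dgat2l6: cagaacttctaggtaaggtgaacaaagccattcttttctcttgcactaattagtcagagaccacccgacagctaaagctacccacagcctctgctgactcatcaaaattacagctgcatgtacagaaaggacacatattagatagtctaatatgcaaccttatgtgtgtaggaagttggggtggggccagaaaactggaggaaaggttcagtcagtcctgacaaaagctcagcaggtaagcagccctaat

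Fasn held 3 NF-Y boxes, at 90 to 86, 62 to 58 and 59 to 55 bases upstream, of which the last 2 overlap by 2 bases. Acsbg1 held 2, at 83 to 79 and 53 to 49, Plin2 held 1 at 73 to 69, Agps held 1 at 162 to 158, and the Mogat1 and Dgat2l6 windows held none. Over all members, 39 had a window, and 20 of them held the box, where 37.5 percent of all genes with a window of this length did. It stood in 13 of the 26 members with a window that were higher in adult HG (50 percent) and in 6 of the 11 others tested (54.5 percent). The E-box CACGTG was in the windows of Gnpat, Lpin2 and Mlxipl (6.86 percent of all genes), the sterol response element TCACNCCAC in those of Acsl1 and Mlxipl (1.22 percent), and the nuclear receptor repeat (AGGTCA in direct repeat, 1 base apart) in none (0.0407 percent). All motifs were searched on both strands, and a match is a description of the letters, not of binding.

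Several members are neighbours in the genome. On chromosome 1 Mogat1 lies next to Acsl3, and both were higher in adult HG (10.70 and 2.69). On the X chromosome Dgat2l6 lies next to Awat1, with 2 genes between Dgat2l6 and Awat2, and Dgat2l6 and Awat2 were both higher in adult HG, while Awat1, which was not tested, was well above background on 1 adult HG array and 1 eyelid mesenchyme array. On chromosome 7 Dgat2 lies next to Mogat2. Dgat2 was 3.84 higher in adult HG, whereas Mogat2 overlapped between the adult glands. On chromosome 17 Plin4 lies next to Plin5, and on chromosome 19 Fads1 lies next to Fads2. On chromosome 19 there are also Gpam and Acsl5 with 2 genes between them, of which Acsl5 was 4.53 higher in adult HG and Gpam was not called (-0.23).

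From the embryonic epithelium to the adult gland, most members rose in HG, whereas in LG nearly as many fell as rose. Adult glands were whole and embryonic samples were epithelium alone, so age and tissue makeup cannot be told apart here. In HG, 35 of 42 members were higher in the adult and 4 lower, where 34.4 percent of all genes were higher and 35.6 percent lower, and the median was 3.0 (0.06 over all genes). In LG, 18 were higher and 15 lower, against 31.2 and 38.7 percent of all genes, with a median of 0.28 (-0.10 over all genes). These comparisons and that between the adult glands share arrays.

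The largest increases in HG included genes that were below background in HG epithelium. Dgat2l6 was at least 3699-fold and Acsbg1 at least 5748-fold higher in adult HG than in HG epithelium, neither being well above background on an HG epithelial array (adjusted p = 3.93e-16 and 2.51e-15). Cidea rose by 12.04 ± 0.39, from -2.65, -2.87 and -2.61, and Mogat1 by 11.70 ± 0.45, from -3.36, -3.0 and -3.18. Me1 rose by 8.73 ± 0.21, Plin2 by 7.78 ± 0.25, Fasn by 6.62 ± 0.23 and Agpat2 by 6.17 ± 0.16, each with groups that did not overlap (adjusted p from 3.93e-16 to 1.89e-14).

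Acacb rose by 6.02 ± 0.20, Pnpla3 by 5.76 ± 0.24, Agps by 4.51 ± 0.18 and Dgat1 by 4.40 ± 0.16. Thrsp rose by 4.25 ± 0.26 and Acsl5 by 4.0 ± 0.22, Acly by 3.96, Acaca by 3.93, Plin4 by 3.85, Srebf1 by 3.22, Pnpla2 by 3.03, Fitm2 by 2.98, Awat2 by 2.92 and Lpin1 by 2.58.

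Cidec was at least 13.9-fold, Far2 at least 11.4-fold, Plin1 at least 2.40-fold and Fitm1 at least 1.63-fold higher in adult HG than in HG epithelium, where none of them was well above background. The Fitm1 call (adjusted p = 0.0426) was lost with the replicate number as a block (adjusted p = 0.0547). Without adult HG replicate 1 the measured difference of Fitm1 was 0.73 (adjusted p = 0.343) and that of Plin1 1.44 (adjusted p = 0.00715). Increases of 1.44 to 2.43 were found in Acsl1, Gpam, Acsl4, Agpat3, Dgat2, Plin3, Cideb, Me3 and Gnpat. The 4 members that fell in HG were Mogat2 by 4.59 ± 0.42, Fads1 by 2.36 ± 0.22, Lpin2 by 2.36 ± 0.14 and Fads2 by 2.13 ± 0.57 on the log2 scale. For Fads2 the value was -1.32 (adjusted p = 0.0231) without adult HG replicate 3. Plin5 was the droplet protein that was not called, at 0.29 (adjusted p = 0.574), and its levels in HG epithelium were -0.45, -0.70 and -0.44.

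The 18 members higher in adult LG than in LG epithelium were 6 of 10 droplet proteins, 4 of 9 genes of fatty acid synthesis and its regulation, 2 of 7 of desaturation and activation, 3 of 9 of glycerolipid assembly, 2 of 5 tested of wax ester and ether lipid synthesis and 1 of 2 lipases. Cidec was at least 15.9-fold and Plin1 at least 5.46-fold higher in adult LG than in LG epithelium, Plin4 rose by 3.55 ± 0.46 and Cidea by 3.66 ± 0.44. These genes are also known from fat cells, whose marker Adipoq was at 1.04 and -0.48 in adult LG and was not well above background in the embryonic groups; what fat in the whole gland contributed was not tested. Lpin1 rose by 3.78 ± 0.23, Thrsp by 3.48 ± 0.29, Me1 by 5.03 ± 0.24 and Acsbg1 by 4.52 ± 0.44, and Me3 was at least 17.3-fold higher. Smaller increases were found in Acsl1 (1.75), Plin3 (1.69), Gpam (1.69), Acacb (1.02) and Agpat2 (0.47). The Agpat2 value was -0.00244 with median scaling and 0.30 without adult LG replicate 1. Pnpla3, the lipase counted among the 18, was called at 0.76. It was well above background on all 3 LG epithelial arrays and not in adult LG, so its direction rests on signals below background. Its call was lost with median scaling, with quantile scaling and without LG epithelium replicate 2. Far2 was at least 3.80-fold higher, at -2.46 and -3.97 in adult LG, of which 1 array was well above background. Without adult LG replicate 1 the Far2 call was lost. Dgat2l6 and Fitm1 were called with neither group well above background.

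The 15 members lower in adult LG were 3 of 9 genes of synthesis and its regulation, 4 of 7 of desaturation and activation, 4 of 9 of glycerolipid assembly, 2 of 5 tested of wax ester and ether lipid synthesis, 2 of 10 droplet proteins and 0 of 2 lipases. Acaca fell by 3.12 ± 0.24, Agps by 3.12 ± 0.20, Acsl3 by 3.19 ± 0.24, Dgat2 by 2.59 ± 0.26 and Fads1 by 3.96 ± 0.24 on the log2 scale. Plin5 was at least 6.73-fold and Mogat2 at least 3.01-fold lower in adult LG, where neither was well above background. Acly fell by 0.98 ± 0.20, Acsl4 by 0.89, Agpat3 by 0.86, Fasn by 0.82 ± 0.25, Lpin2 by 0.79 and Gnpat by 0.74, the last being -0.46 (adjusted p = 0.0315) without adult LG replicate 1. Fads2 was at -3.04 and -4.90 in adult LG, and its difference of -2.14 lost its call without adult LG replicate 2 (-1.21, adjusted p = 0.162) and with normexp background correction (adjusted p = 0.816). Fitm2 was at least 1.35-fold lower, a direction that turned with normexp background correction (0.21, adjusted p = 0.413). Of these, 9 rose in HG: Acaca, Acly, Acsl4, Agpat3, Agps, Dgat2, Fasn, Fitm2 and Gnpat.

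The test of the difference between these changes called 28 members as changing more upward in HG and 3 the other way, where 27.1 and 18.1 percent of all genes were called. The largest was Mogat1 at 12.37 ± 0.67, which rose in HG and had -0.67 (adjusted p = 0.238) in LG. Lpin1, Lpin2 and Me3 were the 3 with the opposite sign, at -1.21 ± 0.31, -1.57 ± 0.22 and -3.49 ± 0.38. Cidec, Plin1, Plin4 and Thrsp rose in both glands, and their changes were not called as different (adjusted p = 0.878, 0.115, 0.733 and 0.112). The difference did pass for Plin1 in 3 alternatives (adjusted p from 0.005 to 0.0327) and for Thrsp in 4 (0.0114 to 0.0493).

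**Figure D4:**
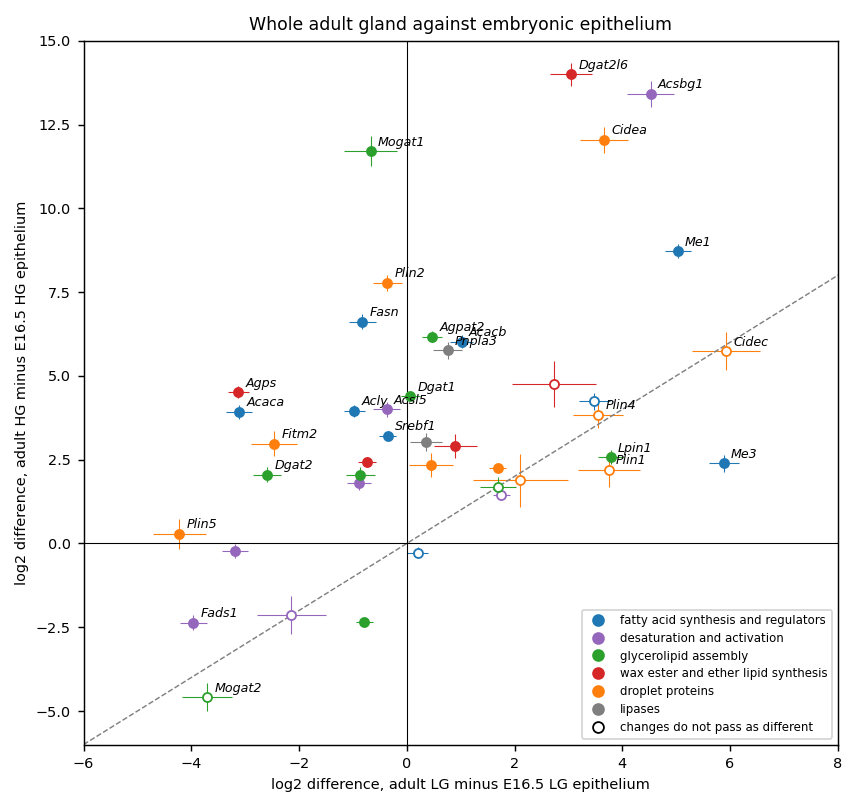
Change with age of the 42 members tested: difference between adult LG and LG epithelium (horizontal) against that between adult HG and HG epithelium (vertical), log2, with SE bars and colour by role. Filled points passed the test that the changes differ; the dashed line marks equal change. The 28 members that changed more upward in HG lie above the line, led by Mogat1, and Me3, Lpin1 and Lpin2 lie below it; Cidec and Plin4 lie near it. For genes below background in a group, such as Dgat2l6, the plotted difference is the measured one and not a bound.

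In the embryo, epithelium and mesenchyme of each tissue each held members at the higher level. In LG, 16 members were higher and 7 lower in epithelium (32.1 and 26.5 percent of all genes), in HG 15 and 7 (29.8 and 28.1 percent) and in the eyelid 20 and 7 (25.7 and 25.5 percent). With median scaling, the eyelid count of 20 became 13, and with the replicate number as a block Fitm2 (0.74, adjusted p = 0.0452) and Gnpat (0.31, adjusted p = 0.0453) were called there too. The medians over members were 0.15 in LG, 0.30 in HG and 0.60 in the eyelid, against 0.11, 0.03 and 0.05 over all genes.

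Of the 42, 7 were higher in epithelium in all 3 tissues: Acaca, Acsl4, Acsl5, Awat2, Plin5, Pnpla2 and Srebf1. The share of all genes with this pattern was not counted, so the number describes these members alone. Acsl5 differed by 1.81 ± 0.22 in LG, 2.17 ± 0.22 in HG and 1.83 ± 0.22 in the eyelid. Awat2 was at least 1.69-fold, 1.68-fold and 1.33-fold higher in the respective epithelia, since no mesenchymal array had it well above background, and it lost its call in all 3 tissues with normexp background correction (adjusted p = 0.194, 0.0608 and 0.472). The eyelid call of Plin5 was lost in 7 alternatives (adjusted p from 0.0522 to 0.12) and that of Pnpla2 in 5 (0.0508 to 0.208), among them for both genes those without eyelid epithelium replicate 2, eyelid epithelium replicate 3, eyelid mesenchyme replicate 1 or eyelid mesenchyme replicate 2. Plin2 and Cideb were lower in all 3 epithelia, Plin2 by -1.70 ± 0.25 in LG, -1.30 ± 0.25 in HG and -1.39 ± 0.25 in the eyelid.

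Among the embryonic groups, Plin5 was highest in the gland epithelia. Its levels were -0.27, -0.28 and -0.30 in LG epithelium and -0.45, -0.70 and -0.44 in HG epithelium, against -3.18, -3.0 and -3.09 in eyelid epithelium. In mesenchyme they were -4.86, -5.78 and -5.98 (LG), -6.47, -4.39 and -6.44 (HG) and -4.27, -4.51 and -4.08 (eyelid). Plin5 was at least 26.8-fold higher in LG epithelium than in LG mesenchyme, 5.23 ± 0.44 higher in HG (adjusted p = 1.28e-08) and 1.20 ± 0.44 higher in the eyelid (adjusted p = 0.0287).

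Whether the difference between compartments depended on the tissue was tested by a moderated F test, which called 21 members (42.3 percent of all genes) and, with the replicate block, Acacb and Acsl3 as well (adjusted p = 0.043 and 0.0109). The largest F was that of Acsl1, at 173 (adjusted p = 8.04e-10). Acsl1 levels were 4.92, 4.86 and 4.45 in eyelid epithelium and 1.45, 1.07 and 1.52 in eyelid mesenchyme, whereas LG epithelium (2.35, 2.19, 2.20) and LG mesenchyme (2.31, 2.40, 2.58) overlapped. The difference was 3.40 ± 0.14 in the eyelid, 0.95 ± 0.14 in HG and -0.18 ± 0.14 in LG, the last not called (adjusted p = 0.28).

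Both malic enzymes depended on the tissue. Me1 was lower in epithelium of both glands, with levels of 0.09, 0.05 and 0.18 in LG epithelium against 3.35, 3.27 and 3.25 in LG mesenchyme, and -0.73, -0.30 and -0.06 in HG epithelium against 3.15, 3.09 and 3.19 in HG mesenchyme. In the eyelid the order was turned, with 2.70, 2.79 and 2.40 in epithelium and 1.99, 1.40 and 1.80 in mesenchyme. The differences were -3.18 ± 0.21, -3.51 ± 0.21 and 0.90 ± 0.21 (F = 131, adjusted p = 3.85e-09).

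Me3 was not well above background on any LG epithelial array (-7.30, -6.66 and -6.77), unlike every other group. Its levels were -2.63, -3.14 and -2.68 in LG mesenchyme, -1.75, -2.44 and -2.35 in HG epithelium and -1.15, -1.22 and -0.83 in eyelid epithelium. It was therefore at least 5.01-fold lower in LG epithelium than in its mesenchyme and at least 7.80-fold lower than in HG epithelium (adjusted p = 9.36e-10). Its other detected probe gave -3.04 between the LG compartments.

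Acsbg1 and Dgat2 were high in eyelid epithelium. Acsbg1 was at 2.29, 2.68 and 1.53 there and -1.10, -1.96 and -1.94 in eyelid mesenchyme, a difference of 3.83 ± 0.39 (adjusted p = 1.64e-07). In the glands it was lower in LG epithelium than in LG mesenchyme (-2.66 ± 0.39), and in HG neither compartment was well above background. Dgat2 was at 6.52, 6.89 and 6.51 in eyelid epithelium and 2.47, 2.46 and 2.82 in eyelid mesenchyme (4.06 ± 0.24), against 1.0 ± 0.24 in LG and -0.27 (not called) in HG.

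Pnpla3 was at least 3.89-fold higher in eyelid epithelium than in its mesenchyme and was not called in either gland. Of the members, 7 were higher in epithelium of the eyelid and not called in the glands: Acly, Agpat3, Dgat2l6, Fasn, Gpam, Lpin1 and Pnpla3. How many of all genes show that pattern was not counted. Dgat2l6 among them was below background in both compartments, so its call rests on dim signals. The tissue test called Acly, Agpat3, Dgat2l6 and Pnpla3 but not Fasn, Gpam or Lpin1.

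Both ether lipid enzymes, Agps and Gnpat, were called higher in epithelium in LG and HG and were not called in the eyelid. Agps was higher in epithelium of LG (4.75, 4.40 and 4.89 against 2.81, 2.63 and 2.76) and of HG (4.02, 3.46 and 3.83 against 2.48, 2.55 and 2.56). In the eyelid the compartments overlapped (2.19, 2.22 and 2.48 against 2.39, 2.21 and 2.38). The differences were 1.94 ± 0.18, 1.24 ± 0.18 and -0.03 ± 0.18, with F = 31.1 and an adjusted p of 1.98e-05 for dependence on the tissue. For Gnpat they were 0.79 ± 0.15, 0.96 ± 0.15 and 0.31 ± 0.15, and the dependence on the tissue, with an adjusted p of 0.0412, was lost in 16 alternatives (adjusted p from 0.0504 to 0.413), most of which left out 1 array.

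Mogat1 was at -1.44, -1.73 and -1.37 in LG epithelium against -4.66, -5.17 and -3.92 in LG mesenchyme, a difference of 3.07 ± 0.45 (adjusted p = 9.9e-06), and was not called in HG or the eyelid. Thrsp was higher in LG epithelium than in its mesenchyme by 1.82 ± 0.26 and not called in HG. It was called lower in eyelid epithelium, where no array had it well above background, so no fold is given, and that call was lost with normexp background correction (adjusted p = 0.274). Mogat2 was lower in eyelid epithelium by -3.10 ± 0.42 and not called in the glands. Fads1 was lower in eyelid epithelium by -1.79 ± 0.22 (adjusted p = 1.36e-06).

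Other calls between the compartments were smaller. In both glands Acsl3 (0.84 in LG, 0.55 in HG) and Fitm2 (1.04 and 1.52) were higher in epithelium, and Plin3 was lower (-0.62 and -0.81). The HG call of Acsl3 was lost in 5 alternatives (adjusted p up to 0.204) and the LG call of Fitm2 in 4 (up to 0.147). Plin3 lost its LG call with median scaling (0.175). Plin1 was at least 1.73-fold lower in LG epithelium and at least 1.65-fold lower in HG epithelium than in the mesenchyme. Its LG call was lost with normexp background correction (adjusted p = 0.123) and its HG call in 2 alternatives (up to 0.283). Acaca was higher in epithelium by 1.27, 1.37 and 0.79 in LG, HG and eyelid, Acsl4 by 1.42, 1.06 and 1.12, Srebf1 by 0.75, 0.60 and 0.89 and Pnpla2 by 2.10, 1.17 and 0.75, while Cideb was lower by -1.58, -2.14 and -1.32.

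Some members were called in 1 tissue and not in the other two. In LG epithelium Cidea (1.09) and Dgat1 (0.59) were higher. Cidea lost this call in 4 alternatives (adjusted p up to 0.105) and Dgat1 with median scaling (0.0609). In HG epithelium Lpin2 was higher (0.47) and Agpat2 lower (-0.69). In eyelid epithelium Acly (1.39), Agpat3 (1.42), Gpam (1.26), Fasn (0.69) and Lpin1 (0.51, adjusted p = 0.0495) were higher and Acacb was lower (-1.07). Lpin1 lost this call in 9 alternatives (adjusted p up to 0.261), among them every one that left out 1 eyelid array. Fasn lost its eyelid call in 2 (up to 0.153) and Gpam with normexp background correction (0.071). Mlxipl was higher in HG (0.58) and eyelid epithelium (0.79), but in LG its probes gave -0.15 and 3.22, so its order rests on the probe. Dependence on the tissue was called for Acly (adjusted p = 0.000308), Agpat3 (adjusted p = 0.0163) and Mlxipl (adjusted p = 0.0133) and for Agpat2 (adjusted p = 0.037, lost in 11 alternatives), but not for Gpam, Acacb, Cidea, Dgat1, Lpin2, Lpin1 or Fasn (adjusted p from 0.0685 to 0.439), whose differences are thus not shown to differ between the tissues.

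Fitm1 was a gene of eyelid mesenchyme in the embryo, at 0.31, -0.11 and 0.12 there. Of the other embryonic arrays, only 2 had it well above background, and eyelid epithelium was at -6.68, -6.11 and -3.97 (difference -5.69 ± 0.80, adjusted p = 7.67e-06). All 6 skeletal muscle markers were well above background on every eyelid mesenchyme array, and their summed level ran from 5.62 to 6.74 there against 0.01 to 2.60 in the gland mesenchymes. The part of muscle in the Fitm1 level was not tested.

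**Figure D5:**
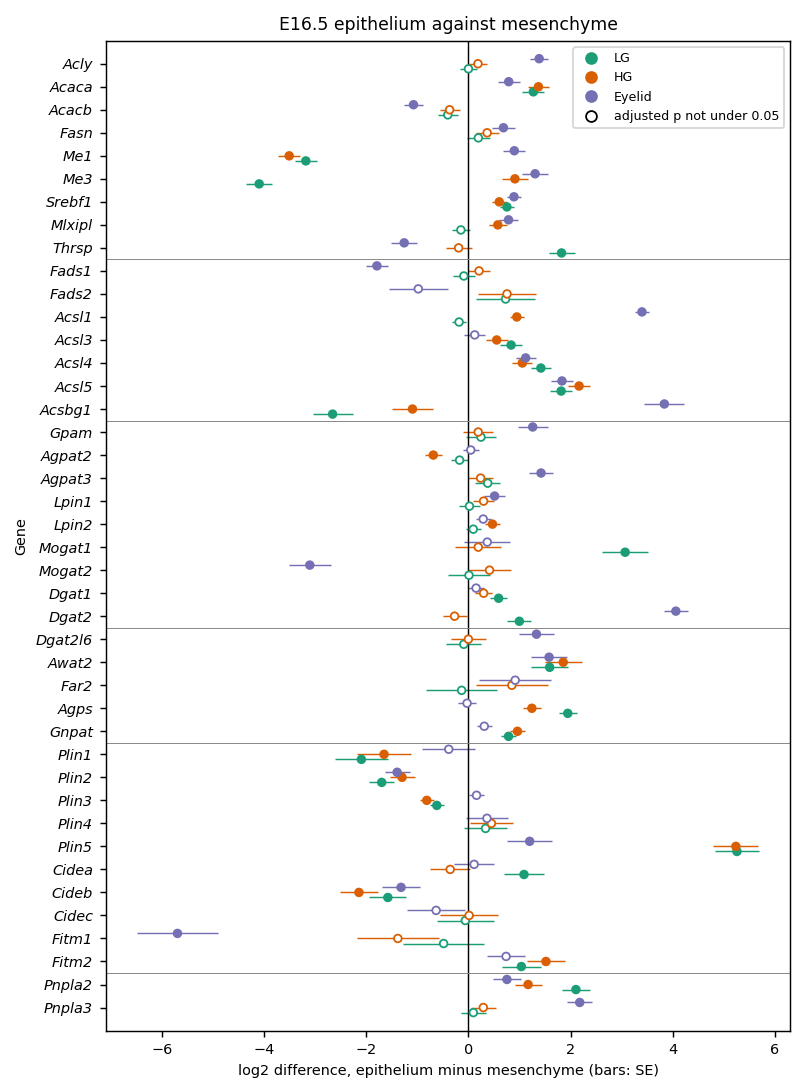
Difference between epithelium and mesenchyme at embryonic day 16.5 for the 42 members tested (log2, bars are SE) in LG, HG and eyelid; filled points had an adjusted p under 0.05. Plin5 stands out to the right in both glands, Me1 to the left in both glands, and Acsl1, Acsbg1 and Dgat2 to the right in the eyelid; Fitm1 lies far to the left in the eyelid.

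Few members were called between the embryonic epithelia of HG and LG, but those lower in HG epithelium were a larger share than among all genes. In HG epithelium 2 members were higher (Me3 and Lpin2) and 5 lower, where 3.39 and 2.96 percent of all genes were called. The 5 lower were Mogat1 (-1.67 ± 0.45, adjusted p = 0.0291), Thrsp (-1.45 ± 0.26, adjusted p = 0.000971), Agps (-0.91 ± 0.18, adjusted p = 0.00292), Dgat2 (-0.81 ± 0.24, adjusted p = 0.0483) and Acsl4 (-0.79 ± 0.20, adjusted p = 0.019). Of these, Mogat1, Agps, Dgat2 and Acsl4 were higher in adult HG than in adult LG, the opposite order. Their embryonic calls were not stable. Mogat1 and Dgat2 each lost theirs in 8 alternatives (adjusted p up to 0.103 and 0.235), among them every one that left out 1 array of these groups. Acsl4 lost its call in 4 (up to 0.341) and Agps in 2 (up to 0.206). Lpin2 was 0.51 ± 0.14 higher (adjusted p = 0.0419), a call lost in 8 alternatives (adjusted p up to 0.605). With median scaling 1 member was higher and 1 lower, and leaving out any 1 array of these groups gave 1 to 2 higher and 2 to 3 lower.

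No synthesis gene other than Me3 and Thrsp was called between the gland epithelia. For Fasn the difference was -0.29 (adjusted p = 0.72), for Acaca -0.36 (adjusted p = 0.524), for Plin2 0.37 (adjusted p = 0.612) and for Cidea -0.37 (adjusted p = 0.872). Over all 42 members the median was -0.14.

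Eyelid epithelium differed more from the gland epithelia. Against LG epithelium 10 members were higher and 14 lower (18.3 and 27.2 percent of all genes), and against HG epithelium 10 and 10 (18 and 26.6 percent). Acsbg1 was 7.23 ± 0.39 higher than in LG epithelium and at least 119-fold higher than in HG epithelium, Dgat2 was higher by 3.70 ± 0.24 and 4.51 ± 0.24, and Acsl1 by 2.50 ± 0.14 and 2.96 ± 0.14. Me1 was higher by 2.52 ± 0.21 and 2.99 ± 0.21, Cidea by 1.61 and 1.98, Pnpla3 by 1.58 and 1.26, Agpat3 by 1.04 and 1.14 and Plin3 by 0.66 and 0.64. Me3 was at least 16.9-fold higher than in LG epithelium and 1.11 higher than in HG epithelium, and Dgat2l6 was called in both with neither group well above background.

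Among the lower members, Plin5 differed by -2.80 ± 0.44 and -2.56 ± 0.44 against LG and HG epithelium, Agps by -2.38 ± 0.18 and -1.47 ± 0.18, and Fads1 by -2.15 ± 0.22 and -1.96 ± 0.22. Mogat2 was lower by -1.98 and -3.38, Fads2 by -2.76 and -2.32 and Acacb by -0.91 and -1.22. Acaca was lower by -0.97 and -0.61, Acsl3 by -0.84 and -0.55 and Gnpat by -0.51 and -0.62. Against HG epithelium Acsl3 lost its call in 7 alternatives (adjusted p up to 0.177) and Acaca in 6 (up to 0.0918). Most of these left out 1 array. Gnpat lost both its calls with median scaling (adjusted p = 0.0768 and 0.0576). Thrsp, not well above background in eyelid epithelium, was at least 4.70-fold and at least 1.71-fold lower. Against LG epithelium alone, Mogat1 (-2.20), Pnpla2 (-1.01), Srebf1 (-0.59) and Dgat1 (-0.54) were lower too; the difference between these calls was not tested. The replicate block added Fitm2, Lpin1, Lpin2, Mlxipl and Plin1 to the calls against LG epithelium (adjusted p from 0.0334 to 0.0453) and Acly and Pnpla2 to those against HG epithelium (0.0237 and 0.0305).

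Among the 3 embryonic mesenchymes, 10 members differed by the moderated F test, where 35.1 percent of all genes did: Acly, Me1, Srebf1, Thrsp, Acsl1, Acsbg1, Gpam, Plin5, Cidea and Fitm1. With the replicate number as a block Fasn, Mlxipl and Mogat1 passed too (adjusted p = 0.0455, 0.0386 and 0.0162). With the slide as a block 18 passed, and 22 passed when the 3 groups were fitted alone. The calls of Plin5, Gpam and Thrsp were lost without eyelid mesenchyme replicate 3 (adjusted p = 0.101, 0.242 and 0.0698). Acsbg1 was at -2.52, -2.42 and -2.27 in LG mesenchyme and -1.10, -1.96 and -1.94 in eyelid mesenchyme, and not well above background in HG mesenchyme. Cidea was at 0.42, -1.30 and -1.65 in eyelid mesenchyme, above the -3.51 to -3.35 of LG mesenchyme.

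Other genes of the route, which are not members, gave a wider frame. Of 63 listed, 61 were tested. In adult HG 32 were higher and 15 lower than in adult LG (33.2 and 22.4 percent of all genes). Their median difference was 0.80, against 0.13 over all genes. The elongases Elovl5 and Elovl6 were higher by 9.35 and 9.20 and the desaturases Scd3 and Scd1 by 7.56 and 5.57, while Elovl7 was lower by -3.83 and the cholesterol acyltransferase Soat1 by -3.80. These genes were listed with earlier results of these arrays known. From HG epithelium to adult HG 40 were higher and 12 lower (34.4 and 35.6 percent of all genes). From LG epithelium to adult LG the counts were 29 and 17 (31.2 and 38.7 percent of all genes). In HG epithelium against LG epithelium 1 was higher (G0s2) and 3 lower (Aldh3a2, Mgll and Scd1), where 3.39 and 2.96 percent of all genes were.

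Among 16 fat cell markers tested, none of them members, 5 were higher in adult HG than in adult LG (Cd36, Cebpa, Lpl, Nrg4 and Pparg) and 2 lower. Of all genes 33.2 percent were higher and 22.4 percent lower, and the median difference of the list was -0.26. Gpd1 was at 2.93, 3.21 and 4.18 in adult HG and 4.41 and 5.51 in adult LG. Retn, Cfd, Fabp4 and Car3 overlapped between the glands. The summed level of the list was 7.46 to 7.92 in adult HG and 5.88 to 6.01 in adult LG. Pparg, a nuclear receptor of fat cells that is also made in sebaceous cells, was at 5.84, 6.59 and 6.65 in adult HG and -0.50 and -1.27 in adult LG. Adipoq, which defines fat cells, was well above background on every adult array and overlapped between the glands, and Ucp1, which marks brown fat, was not well above background on any adult array. The part of fat cells in the members' levels was not tested.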

How the data were processed

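RNA was labelled with 1 dye and hybridised to Agilent mouse arrays, 23 in all, and the deposited files hold each spot's processed intensity from Agilent Feature Extraction 11.5.1.1, per the submitters' processing notes. Slides 2 and 3 carry that version, and slide 1 carries 11.0.1.1, per the file headers. The deposited value table held the same intensity averaged per probe, without scaling. From these, log2 processed intensity minus each array's log2 75th percentile was computed, control and outlier spots were left out, and 1 probe per gene was kept (the highest mean among probes well above background in at least 0.5 of spots on every array of a group). Of 55681 probes, 27509 matched a RefSeq symbol through the accessions of slide 1's design, because the designs of the slides differ in them.

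A group-means model over all 23 arrays was fitted with limma 3.58.1 in R 4.3.3 (lmFit, eBayes) and p-values were adjusted by Benjamini-Hochberg over 16324 genes; the script was checked on simulated data. Figures used Python. The number of arrays limits the precision. Up to 4 members of each role with the widest range of group means have their value on every array, called members are named, and the largest differences carry an SE. The members and gene lists were chosen with earlier results of these data known. Alternatives were normexp background correction (offset 50, on the median signal, since the mean signal was not used here), median or quantile scaling, the deposited table, no filter, the mean over probes, slide or replicate blocks, fits of the compared groups alone and leaving out arrays. Same-numbered embryonic arrays deviated together within each comparison of a pair of groups (correlations of 0.171 to 0.578). Those of the adult comparisons did not do so throughout. The correlations ran from -0.122 to 0.370 for adult HG against HG epithelium. They ran from -0.341 to -0.0232 for adult LG against LG epithelium and from -0.313 to 0.198 between the adult glands. Embryonic arrays of the same number also shared a slide, so a pairing of the samples cannot be told apart from an effect of the slide. The labels do not state a pairing. The slide and replicate blocks divide the embryonic arrays alike and differ only in where they place the adult LG arrays.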

Additional observations from a re-analysis of the deposited data

Results flagged for a closer look

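A difference between the glands in their change with age was tested for every member tested, and 31 passed (limma, adjusted p under 0.05 over 16324 genes). The log2 values that follow are the change from HG epithelium to adult HG minus the change from LG epithelium to adult LG. For fatty acid synthesis and its regulators they were 7.44 for Fasn, 7.05 for Acaca, 5 for Acacb, 4.93 for Acly, 3.7 for Me1, 3.57 for Srebf1 and -3.49 for Me3. Among desaturation and activation genes they were 8.89 for Acsbg1, 4.38 for Acsl5, 2.97 for Acsl3, 2.69 for Acsl4 and 1.6 for Fads1. Genes of glycerolipid assembly had 12.37 for Mogat1, 5.7 for Agpat2, 4.65 for Dgat2, 4.33 for Dgat1, 2.89 for Agpat3, -1.21 for Lpin1 and -1.57 for Lpin2. The wax ester and ether lipid genes had 10.94 for Dgat2l6, 7.63 for Agps, 3.17 for Gnpat and 2.02 for Awat2. Droplet protein genes had 8.38 for Cidea, 8.14 for Plin2, 5.44 for Fitm2, 4.51 for Plin5, 1.89 for Cideb and 0.56 for Plin3, of which Plin3 lost its call in 9 alternatives (adjusted p from 0.0705 to 0.398) and Cideb in 2, among them that without adult LG replicate 2 (1.22, adjusted p = 0.0888). The lipases had 5 for Pnpla3 and 2.66 for Pnpla2. Dgat2l6 was below background in LG at both ages, and its value, like those of Acsbg1, Me3, Awat2, Mogat1, Plin5, Fitm2 and Pnpla3, rests on measured signals of which some lay below background. Awat2 (adjusted p = 0.296) and Me3 (0.056) lost their calls with normexp background correction, and Lpin1 (0.119) with median scaling.

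Dependence of the embryonic difference between epithelium and mesenchyme on the tissue passed for 21 members, and the moderated F values are given by role. Synthesis genes and regulators had 144 for Me3, 131 for Me1, 37.5 for Thrsp, 18.6 for Acly and 7.59 for Mlxipl. In desaturation and activation F was 173 for Acsl1, 74.7 for Acsbg1 and 24.7 for Fads1. In glycerolipid assembly F was 89.2 for Dgat2, 21.5 for Mogat2, 13 for Mogat1, 7.13 for Agpat3 and 5.41 for Agpat2. Ether lipid and wax ester genes had 31.1 for Agps, 5.38 for Dgat2l6 and 5.2 for Gnpat. Among droplet proteins F was 28.5 for Plin5, 13.4 for Plin3 and 12.2 for Fitm1. Both lipases passed, with 22.5 for Pnpla3 and 6.75 for Pnpla2. The call of Gnpat was lost in 16 alternatives (adjusted p up to 0.413), that of Dgat2l6, below background in all 6 groups, in 16 (up to 0.949), that of Agpat2 in 11 (up to 0.347), that of Pnpla2 in 3 and that of Agpat3 in 2. Acly, Mlxipl and Plin3 each lost theirs in 1 alternative. No group had 4 or more arrays, so single arrays that stand apart were not tested within groups.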

How the results depend on the processing

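Counts of called members were within 1.5 times the reported ones under normexp background correction, quantile scaling, the deposited table, the mean over probes and the replicate block. With median scaling, members lower in adult HG than in adult LG went from 4 to 1, those higher in eyelid epithelium than mesenchyme from 20 to 13, and HG against LG epithelium gave 1 higher and 1 lower; without the filter on dim probes that comparison gave 1 higher. Fitted with the compared groups alone, 0 members were lower in adult HG (and 26 higher), and 22 differed among the mesenchymes, where the slide block gave 18; the cause was not tested. Without both adult replicate 1 arrays, an alternative chosen after seeing the data, 2 were lower in adult HG, and 2 were without adult LG replicate 1 alone.

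Leaving out arrays in turn gave, as higher and lower, 29 to 31 and 2 to 4 for adult HG against adult LG, 34 to 35 and 4 for HG with age, 15 to 18 and 13 to 15 for LG with age, 1 to 2 and 2 to 3 for HG against LG epithelium, and 8 to 10 differing among mesenchymes. Directions turned for Mogat2 between the adult glands (-0.59, normexp), for Me3 there (-0.0197, mean over probes), for Fitm2 and Agpat2 in LG with age (0.21, normexp; -0.00244, median scaling), for Acly in LG epithelium against mesenchyme (-0.30, quantile) and for Mlxipl with the mean over probes (1.54 there, -1.10 and -1.35 in eyelid against LG and HG epithelium).

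With the replicate number as a block, Far2 (2.0, adjusted p = 0.0501) and Thrsp (-0.61, adjusted p = 0.0657) lost their calls between the adult glands, and Fitm1 lost its call in HG (adjusted p = 0.0547) and in LG with age (adjusted p = 0.0622). Between the embryonic groups, where same-numbered arrays deviated together, the block lost no member's call and added those named with each comparison above. In LG with age the block added Awat2 (0.94, adjusted p = 0.0467). Median scaling moved the median of all genes between the adult glands from 0.13 to 0.38 and in LG with age from -0.10 to -0.57. The share of all genes' calls that were higher in adult HG went from 59.7 percent to 72.1 (median scaling), 47.8 (no filter) and 48.2 (normexp), and in members from 88.2 to 100 percent in fits of the compared groups alone. For HG against LG epithelium the members' share went from 28.6 to 50 percent with median scaling and 42.9 in fits of the compared groups alone. Signals near background in adult LG limit how large its differences can be measured.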
